A study of Rattus norvegicus with 7 samples.

Results

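The genes described here make cholesterol, move and store it, or control its supply through the SREBP transcription factors. The set comprised 32 genes, of which 30 had at least 1 probe set with a single gene symbol on the array, among 14217 such genes in all. Hmgcs1 and Npc1 had none in the platform annotation used, so their expression was not analysed here. The 30 genes had 51 probe sets, and each gene was represented by the probe set with the highest mean over the 7 arrays. The genes were chosen by pathway membership, but with the differences between these same arrays already known from earlier work on them. The differences between the groups are therefore given as a description, with their errors and without a test of the set.

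The samples were right lungs of Dahl salt sensitive rats weighing 250 to 350 g, a strain prone to hypertension on a high-salt diet. All 7 rats breathed about 9.5% oxygen and received SU-5416, an inhibitor of VEGF receptors, a combination used in rats to model pulmonary arterial hypertension. The HSU group had 3 arrays and received nothing further. The HSU_Sor group had 4 arrays and was also given sorafenib, an inhibitor of RAF kinases and of several receptor tyrosine kinases. Lungs were taken at 3.5 weeks after perfusion of the pulmonary vessels with saline. The labels give neither the age of the rats nor the doses, and group sizes in the study design match 1 rat per array. The comparison asked how sterol pathway transcripts in lungs of hypoxic, SU-5416-treated rats differed when sorafenib was added.

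Values are log2 expression per probe set as the authors deposited them, already normalized across arrays, so a difference of 1 is 2-fold. Array medians lay between 3.59 and 3.68. Of 31042 non-control probe sets, those with a 7-array mean above the overall median (3.64) entered the fit. This kept 15521 probe sets, which held 9299 genes and 26 of the 30 sterol genes. Mvd, Tm7sf2, Fads2 and Elovl6 lay below it, near the floor of the scale. The alveolar type II markers Sftpc, Sftpb, Sftpa1, Abca3, Lamp3, Slc34a2 and Napsa were between 12.24 and 15.54 on every array. All HSU titles carry the letter b after the replicate number and no HSU_Sor title does, and if it marks a batch, batch and sorafenib cannot be told apart. A probe set of the MHC class II gene RT1-Bb was at 12.57 on both HSU 1b and HSU 2b, whereas the remaining 5 arrays had 3.55 to 3.72. The other RT1-Bb probe set was at 13.08 to 14.06 on all 7 arrays. For this reason results are also given without these 2 arrays, which leaves HSU 3b as the only HSU array.

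Cholesterol is built from acetyl-CoA through mevalonate, isoprenoid units, squalene and lanosterol, and a further series of enzymes turns lanosterol into cholesterol. SREBP proteins sit in the endoplasmic reticulum bound to SCAP, and when sterols are low SCAP carries them to the Golgi, where proteases release the part that enters the nucleus. INSIG proteins hold SCAP back when sterols are plentiful. SREBP2, from Srebf2, mainly drives genes of cholesterol synthesis, and SREBP1, from Srebf1, mainly those of fatty acid synthesis. In the lung, alveolar type II cells make lipid for surfactant, of which cholesterol is a component, and alveolar macrophages take it up.

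Sterol synthesis enzymes were lower in HSU_Sor lungs along most of the pathway, from Acat2 at its start to Dhcr7 at its end. Of the 15 enzymes above the filter, 13 were lower and 2 were higher (Pmvk and Ebp), with a median log2 difference (HSU_Sor minus HSU) of -0.45. Over all 9299 genes the median was -0.01 and 53.5% were lower. A level at least 1.4-fold lower was found for 7 of the 15 (Acat2, Idi1, Sqle, Lss, Cyp51, Msmo1 and Hsd17b7), against 2.45% of all genes. The groups did not overlap, with all HSU_Sor values lower, for 6 of the 15 (Idi1, Cyp51, Msmo1, Hsd17b7, Sc5d and Dhcr7), against 3.74% of all genes. Over all 26 members this count was also 6, and it was 13 without HSU 2b, when 13.2% of all probe sets had groups apart. The 11 other members above the filter, which control SREBP, use isoprenoids, transport or store sterols or make fatty acids, had a median of -0.10. None of these 11 was 1.4-fold lower, against 2.45% of all genes. None had groups that did not overlap, against 3.74% of all genes lower and 2.3% higher in HSU_Sor. With shares this small, a count of none among 11 genes does not set them apart from all genes.

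No single gene passed the threshold of the fit. With limma, 0 of 15521 probe sets (0%) had a Benjamini-Hochberg adjusted p below 0.05, and the lowest adjusted p was 0.15, while 931 had an unadjusted p below 0.05 where 776 would be expected by chance. Without HSU 3b, 6 probe sets passed the adjusted threshold, none of them a member. Of the 26 members, 6 were lower at an unadjusted p below 0.05, against 4.18% of all genes, and 0 were higher, against 2.69%. These 6 were Idi1, Fdps, Cyp51, Msmo1, Hsd17b7 and Sc5d. Members at an unadjusted p below 0.05 in either direction numbered 3 without HSU 3b, 4 without HSU_Sor 1 and between 5 and 9 without any other single array. In the same limma fits the counts over all 15521 probe sets were 698, 706 and between 827 and 931. The size of the enzyme difference changed with the array left out. The enzyme median was -0.22 without HSU 3b, with 3 enzymes at least 1.4-fold lower, and -0.32 without HSU_Sor 3, with 4. It was -0.61 without HSU 2b, with 8 enzymes at least 1.4-fold lower and 15 of 15 lower. Without HSU 3b and HSU_Sor 3 together it was -0.21, with 12 of 15 lower, against 54.1% of all genes. Without HSU 1b and 2b it was -0.66, with 15 of 15 lower, against 54.8% of all genes. This leaves only HSU 3b, the HSU array with the highest value for 12 of the 15 enzymes, so a larger difference follows from that choice.

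**Figure D1:**
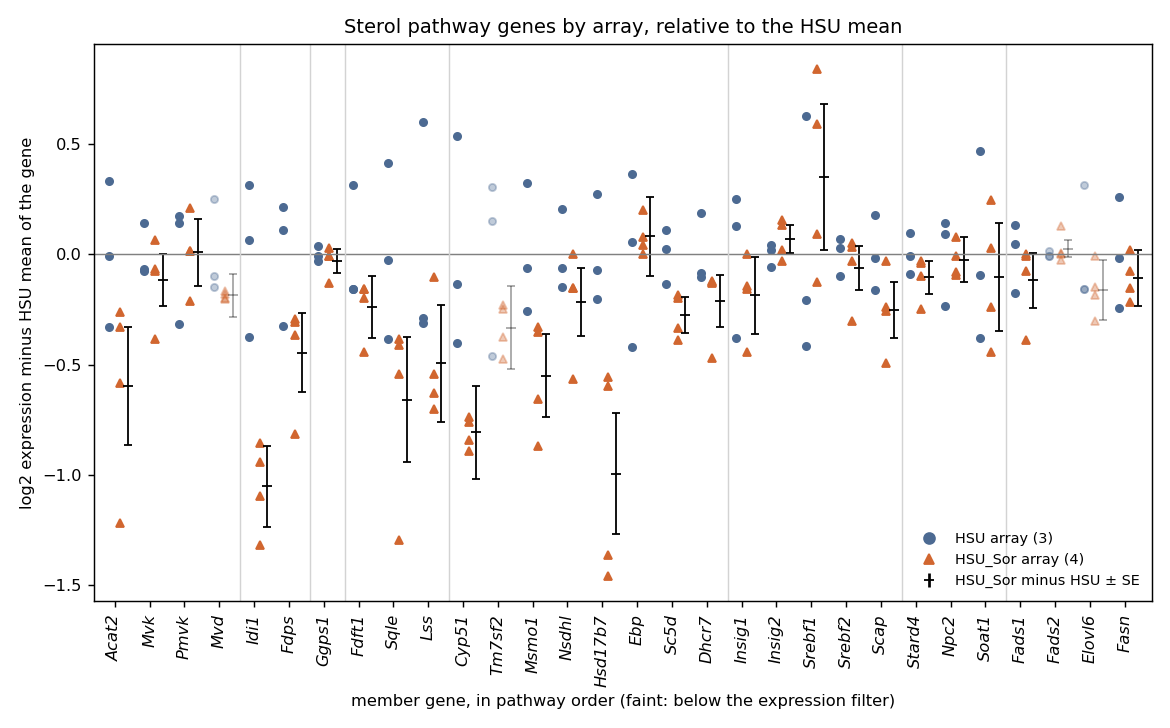
Log2 expression of each member gene minus that gene's HSU mean (vertical axis), in pathway order (horizontal axis), with circles for the 3 HSU arrays, triangles for the 4 HSU_Sor arrays and a bar for the difference ± SE of the fit; faint symbols are the 4 genes below the expression filter. The triangles lie below the circles for Idi1, Cyp51, Msmo1, Hsd17b7, Sc5d and Dhcr7, while those of Pmvk, Ebp, Insig2 and Srebf1 scatter around or above them.

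At the start of the pathway, Acat2, the cytosolic thiolase that joins acetyl-CoA units, gave 10.15, 9.83 and 10.49 on the HSU arrays in replicate order and 9.83, 9.90, 8.94 and 9.57 on HSU_Sor 1 to 4. The groups overlapped, and HSU_Sor 3 was the lowest array. The log2 difference was -0.60 ± 0.27 (SE), and -0.39 without HSU_Sor 3. The kinases that act on mevalonate differed little. Mevalonate kinase (Mvk) was between 5.40 and 5.62 in HSU and between 5.09 and 5.54 in HSU_Sor. Phosphomevalonate kinase (Pmvk) was at 9.70, 9.21 and 9.67 in HSU and at 9.54, 9.54, 9.31 and 9.74 in HSU_Sor. Its difference of 0.01 ± 0.15 changed sign with the array left out, from -0.15 without HSU 2b to 0.10 without HSU 1b. Mvd, the decarboxylase that follows them, was below the filter, at 2.21 to 2.61 in HSU and 2.16 to 2.19 in HSU_Sor, where differences are compressed.

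Idi1, the isomerase that makes the reactive isoprenoid unit, showed the largest difference of the 26. The HSU arrays 1b to 3b gave 11.26, 10.82 and 11.51, and Idi1 was at 10.10, 10.25, 9.88 and 10.34 on HSU_Sor 1 to 4. The lowest HSU array was 0.48 above the highest HSU_Sor array. The log2 difference was -1.05 ± 0.19 (SE), a 2.08-fold lower level with sorafenib. The other Idi1 probe set also had groups apart, with means of 10.86 ± 0.20 (SD, n = 3) and 9.94 ± 0.24 (SD, n = 4) and a difference of -0.92 ± 0.16. Leaving out each array in turn gave Idi1 differences between -1.24 and -0.90, and without HSU 3b and HSU_Sor 3 together the value was -0.81.

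Fdps, which makes farnesyl diphosphate, was at 12.23, 11.80 and 12.33 in HSU and at 11.76, 11.82, 11.30 and 11.81 in HSU_Sor. HSU 2b lay inside the HSU_Sor range. The difference was -0.45 ± 0.18, and -0.21 without HSU 3b and HSU_Sor 3. Ggps1, which takes farnesyl diphosphate away from sterols into geranylgeranyl diphosphate for protein prenylation, was nearly level at 7.26 to 7.32 in HSU and 7.16 to 7.31 in HSU_Sor. Its difference was -0.03 ± 0.05, and the other Ggps1 probe set above the filter differed by 0.04.

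Of the enzymes from farnesyl diphosphate to lanosterol, all 3 were lower and all 3 had groups that overlapped or touched. Sqle, squalene epoxidase and a rate-controlling step, was at 9.99, 9.63 and 10.43 in HSU and at 9.48, 9.63, 8.72 and 9.61 in HSU_Sor. HSU 2b and HSU_Sor 2 carried the same value. The difference was -0.66 ± 0.28, with -0.45 without HSU 3b and -0.24 without HSU 3b and HSU_Sor 3. Squalene synthase (Fdft1) differed by -0.24 ± 0.14, with HSU 1b, HSU 2b, HSU_Sor 2 and HSU_Sor 4 all at 9.14, HSU 3b at 9.61 and HSU_Sor 3 at 8.86. The Fdft1 difference was -0.08 without HSU 3b, and a dimmer Fdft1 probe set differed by -0.38 ± 0.17. Lanosterol synthase (Lss) was at 8.05, 8.07 and 8.96 in HSU and at 7.66, 7.82, 7.73 and 8.26 in HSU_Sor, a difference of -0.50 ± 0.27 that was -0.19 without HSU 3b. Its other probe set stayed between 6.91 and 6.95 on every array.

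**Figure D2:**
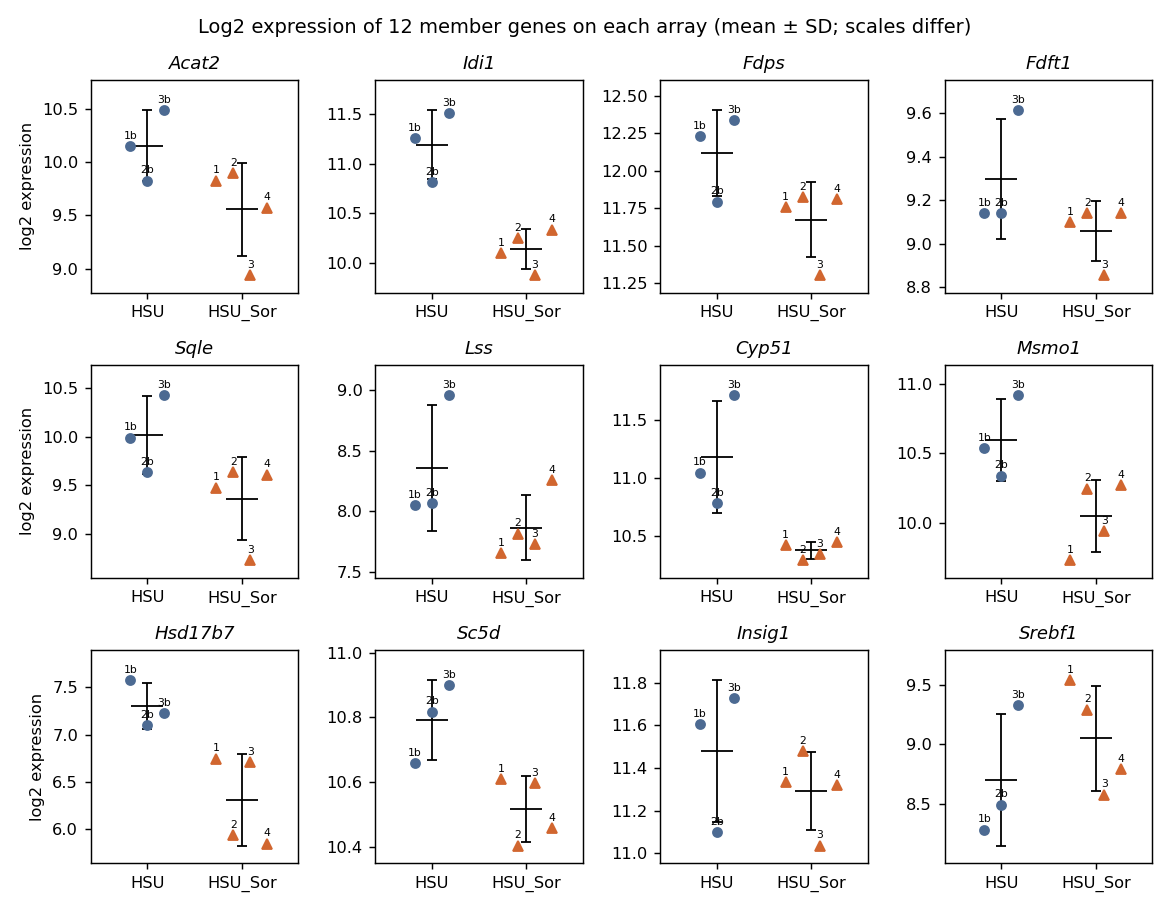
Log2 expression (vertical axis, scale differing by panel) of 12 member genes on each array, labelled by replicate, with circles for HSU, triangles for HSU_Sor, and bars for the mean ± SD. HSU 3b is the highest circle in every panel except Hsd17b7 (7.23, below HSU 1b at 7.58), and HSU_Sor 3 is the lowest triangle for Acat2, Idi1, Fdps, Fdft1, Sqle, Insig1 and Srebf1.

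The enzymes that turn lanosterol into cholesterol held 5 of the 6 genes whose groups did not overlap. Cyp51, the lanosterol demethylase, was at 11.05, 10.78 and 11.72 in HSU and at 10.42, 10.29, 10.34 and 10.44 in HSU_Sor. The HSU_Sor arrays spread little (SD 0.07, n = 4) beside the HSU arrays (SD 0.48, n = 3), and the gap between the groups was 0.34. The difference was -0.81 ± 0.21 (SE), 1.75-fold lower, and -0.54 without HSU 3b. The other Cyp51 probe set differed by -0.55 ± 0.13, again with groups apart. Msmo1, the methylsterol oxidase, was at 10.53, 10.34 and 10.92 in HSU and at 9.73, 10.25, 9.94 and 10.27 in HSU_Sor. The gap between its groups was 0.07 and the difference -0.55 ± 0.19. Nsdhl, the dehydrogenase that acts after it, was at 9.28, 9.20 and 9.55 in HSU and at 9.19, 9.19, 8.78 and 9.34 in HSU_Sor. The Nsdhl groups overlapped and differed by -0.22 ± 0.15, and by 0.00 without HSU 3b and HSU_Sor 3.

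Hsd17b7, a 3-ketosteroid reductase of the same demethylation steps, was at 7.58, 7.10 and 7.23 in HSU and at 6.75, 5.94, 6.71 and 5.84 in HSU_Sor. It was highest on HSU 1b and lowest on HSU_Sor 4, whereas Idi1 and Sqle were highest on HSU 3b and lowest on HSU_Sor 3. The difference was -0.99 ± 0.28, 1.99-fold lower, and -1.16 without HSU 3b and HSU_Sor 3. It rests on 1 probe set. The other Hsd17b7 probe set was at the floor, at 2.30 to 2.35 on all arrays, and averaging both gave a difference of -0.50. Sc5d, the lathosterol oxidase, was at 10.66, 10.82 and 10.90 in HSU and at 10.61, 10.40, 10.60 and 10.46 in HSU_Sor, a difference of -0.28 ± 0.08. Its other probe sets differed by -0.11 and -0.43. Dhcr7, the last reductase, was at 5.93, 5.91 and 6.20 in HSU and at 5.90, 5.88, 5.55 and 5.89 in HSU_Sor. The Dhcr7 groups were apart by 0.02 only, and the difference of -0.21 ± 0.12 was -0.12 without HSU 3b and -0.03 without HSU 3b and HSU_Sor 3. The isomerase Ebp was at 7.10, 6.62 and 7.40 in HSU and at 7.04 to 7.24 in HSU_Sor. HSU 2b was the lowest array, and the difference of 0.08 ± 0.18 was -0.13 without it. The sterol reductase Tm7sf2 was below the filter, at 2.36 to 3.12 in HSU and 2.34 to 2.59 in HSU_Sor.

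The stretches of 250 bases before the transcription start of 5 members are shown with CCAAT boxes in capitals. CCAAT, or ATTGG on the other strand, is the element bound by NF-Y, a factor that works beside SREBP at many sterol genes. Idi1, Hsd17b7, Cyp51 and Msmo1 are the enzymes with the largest differences among those whose groups did not overlap, and Insig1 is shown beside them as an SREBP target that differed little. The sequences are those of RefSeq for rat assembly GRCr8, read 5′ to 3′ on the gene's strand: Idi1 at chr17:66547525-66547774 (minus strand), Hsd17b7 at chr13:84722755-84723004 (minus), Msmo1 at chr16:29746863-29747112 (plus), Cyp51 at chr4:30991443-30991692 (plus) and Insig1 at chr4:8057770-8058019 (minus).
Idi1: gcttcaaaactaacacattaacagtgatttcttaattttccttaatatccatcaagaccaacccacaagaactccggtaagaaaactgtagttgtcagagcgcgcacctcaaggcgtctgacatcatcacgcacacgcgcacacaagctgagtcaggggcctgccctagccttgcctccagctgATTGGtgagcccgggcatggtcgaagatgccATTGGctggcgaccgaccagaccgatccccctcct
Hsd17b7: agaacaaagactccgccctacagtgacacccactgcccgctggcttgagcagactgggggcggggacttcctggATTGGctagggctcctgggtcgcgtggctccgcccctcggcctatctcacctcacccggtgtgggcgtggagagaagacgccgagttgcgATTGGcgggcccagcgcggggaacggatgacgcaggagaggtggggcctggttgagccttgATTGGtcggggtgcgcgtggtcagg
Msmo1: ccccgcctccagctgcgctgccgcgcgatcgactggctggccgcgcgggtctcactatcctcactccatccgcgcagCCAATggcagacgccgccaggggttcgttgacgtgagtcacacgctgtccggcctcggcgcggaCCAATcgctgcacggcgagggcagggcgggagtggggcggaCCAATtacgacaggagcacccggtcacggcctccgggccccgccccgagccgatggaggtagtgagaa
Cyp51: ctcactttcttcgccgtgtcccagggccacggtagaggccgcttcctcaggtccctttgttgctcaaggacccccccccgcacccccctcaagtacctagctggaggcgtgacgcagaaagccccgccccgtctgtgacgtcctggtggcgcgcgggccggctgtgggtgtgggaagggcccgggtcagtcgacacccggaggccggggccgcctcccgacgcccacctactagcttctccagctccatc
Insig1: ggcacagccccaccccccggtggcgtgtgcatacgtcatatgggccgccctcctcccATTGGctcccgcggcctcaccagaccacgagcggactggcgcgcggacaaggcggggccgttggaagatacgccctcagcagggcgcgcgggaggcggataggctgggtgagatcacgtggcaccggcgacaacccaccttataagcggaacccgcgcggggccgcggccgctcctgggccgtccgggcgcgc

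Idi1 had 2 CCAAT boxes within these bases, 66 and 35 bases before the start, Hsd17b7 and Msmo1 had 3 each, Insig1 had 1 and Cyp51 had none. In the same window, 20 of the 26 members with an entry in the promoter table, out of 32, held at least 1 CCAAT box on either strand (76.9%), against 34% of all 33469 promoters and 35.1% of the promoters of genes above the filter. Among the 12 enzymes above the filter with an entry the count was 9, Acat2, Cyp51 and Dhcr7 having none. GGGCGG, the box bound by Sp1, was found for 22 of 26 (84.6%), against 30.5% of all promoters and 58.4% of those of genes above the filter. CACGTG was found for 3 of 26 (Insig1, Sc5d and Scap, 11.5%), against 5.59% of all promoters and 8.01% of those of genes above the filter. The SREBP motif TCACNCCAC, on either strand, was found for 0 of 26 and in 0.974% of all promoters, which says only that these letters are not in the windows searched. The E-box can overlap the end of the SREBP motif, and ATTGG the start of the Sp1 box. The searches for the NF-Y, Sp1 and E-box (CACGTG) motifs and the choice of promoters were made after the SREBP motif had given no match. Entries for Pmvk, Fdft1, Sqle, Stard4, Elovl6 and Fasn were not in the table. The 26 members searched are therefore not the 26 above the filter. They include Mvd, Tm7sf2 and Fads2, which lay below it, and Hmgcs1 and Npc1, which had no probe set.

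The SREBP regulators themselves had groups that overlapped, and differences of at most 0.35 in size. Srebf2, the factor for sterol synthesis genes, was at 11.46, 11.33 and 11.50 in HSU and at 11.48, 11.40, 11.46 and 11.13 in HSU_Sor, a difference of -0.06 ± 0.10. Scap, the escort of SREBP, was at 10.41, 10.27 and 10.61 in HSU and at 10.19, 10.17, 10.40 and 9.94 in HSU_Sor, with a difference of -0.25 ± 0.13. HSU_Sor 4, not HSU_Sor 3, was the low array for both Srebf2 and Scap. Insig1, a direct SREBP target that closes the feedback loop, was at 11.61, 11.10 and 11.73 in HSU and at 11.33, 11.48, 11.04 and 11.32 in HSU_Sor. HSU 2b was the second lowest of all 7 Insig1 values, and the difference was -0.19 ± 0.18, between -0.38 without HSU 2b and -0.06 without HSU 3b, and 0.02 without HSU 3b and HSU_Sor 3. Insig2, which is not driven by SREBP in the same way, differed by 0.07 ± 0.06, and its other probe set by -0.19 ± 0.34.

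Srebf1 was the member with the highest positive difference. Its HSU values were 8.28, 8.49 and 9.33 in replicate order, and its HSU_Sor values 9.54, 9.29, 8.58 and 8.79. The groups overlapped through HSU 3b alone, which exceeded 3 of the 4 HSU_Sor arrays, while HSU 1b and 2b lay below all 4. The difference was 0.35 ± 0.33, and it was 0.66 without HSU 3b and -0.28 without HSU 1b and 2b. The other Srebf1 probe set differed by 0.31 ± 0.29. Fasn, the fatty acid synthase, was at 12.90 to 13.40 in HSU and 12.92 to 13.16 in HSU_Sor, with a difference of -0.11 ± 0.13 that was 0.02 without HSU 3b. The desaturase Fads1 was at 11.84 to 12.15 in HSU and 11.63 to 12.02 in HSU_Sor, a difference of -0.12 ± 0.12. Fads2, between 1.74 and 1.89, and the elongase Elovl6, between 3.33 and 3.94, were below the filter.

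Genes that move or store sterols had overlapping groups. Stard4, a sterol carrier of the cytosol, was at 10.37 to 10.55 in HSU and 10.21 to 10.42 in HSU_Sor. It differed by -0.10 ± 0.08. Npc2, which hands cholesterol out of the lysosome, was at 14.35 to 14.72 in HSU and 14.49 to 14.66 in HSU_Sor, a difference of -0.02 ± 0.10. Soat1, which makes cholesteryl esters for storage, was at 11.63, 10.78 and 11.06 in HSU and at 10.71, 10.92, 11.19 and 11.40 in HSU_Sor. It differed by -0.10 ± 0.24, and by 0.13 without HSU 1b. Of the 13 members with more than 1 probe set above the filter, 11 had the same sign in all of them, the exceptions being Ggps1 and Insig2.

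Within the groups the sterol enzymes varied together. The Pearson correlation of deviations from the group means over the 7 arrays had a median of 0.63 over the 105 pairs of the 15 enzymes and of 0.03 over all pairs of the 9299 genes. A correlation of at least 0.8 was found for 27.6% of the enzyme pairs and 4.2% of all pairs. Over the 325 pairs of all 26 members the median was 0.40, with 15.1% at 0.8 or more. Over the 30 pairs of a fatty acid enzyme with a sterol enzyme it was 0.57, so the shared variation was not confined to sterol synthesis. Over the 21 pairs of lanosterol to cholesterol enzymes it was 0.43. Sqle and Fdps were at 0.96, Acat2 and Sqle at 0.95 and Nsdhl and Dhcr7 at 0.96. Without HSU 3b and HSU_Sor 3 the median over the enzyme pairs was 0.46, on 5 arrays, against 0.00 for all pairs of the 9299 genes. These points share an array and its normalization, and no test was made.

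Insig1 followed the enzymes in this respect, with a median correlation of 0.74 with the 15 enzymes and 0.95 with Fdps, although its difference between groups was small. Srebf1 had a median of 0.54 with the enzymes and Srebf2 of -0.07, while Srebf2 and Scap were at 0.86 with each other. Fasn was at 0.94 with Cyp51. Of the enzymes, Hsd17b7 and Sc5d stood outside the group, with medians of -0.35 and -0.14 against the other 14. Sc5d was at 0.89 with Insig2. Both were among the enzymes whose groups did not overlap.

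**Figure D3:**
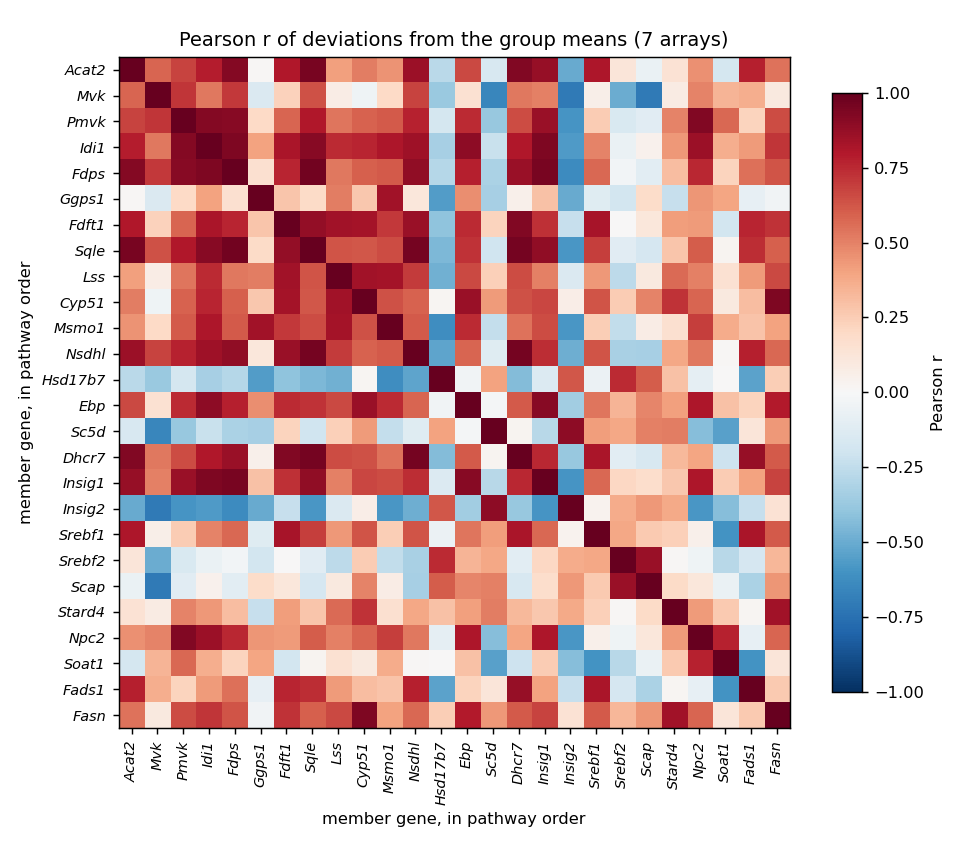
Pearson correlation over 7 arrays (colour, from -1 to 1) between deviations from the group means for each pair of the 26 member genes above the filter, in pathway order on both axes. Most enzyme pairs from Acat2 to Dhcr7 and their pairs with Insig1 are red (median 0.63 among enzymes), while the cells of Hsd17b7, Sc5d and Insig2 against the other enzymes are mostly pale or blue (medians -0.35, -0.14 and -0.49).

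The same arrays were at the ends of the range for most enzymes. HSU 3b had the highest HSU value for 12 of the 15 enzymes and HSU 2b the lowest for 11, and HSU_Sor 3 had the lowest HSU_Sor value for 10. For the HSU arrays this order was not particular to the enzymes. Over all 26 members HSU 3b was the highest HSU array for 20 and HSU 2b the lowest for 19. HSU_Sor 3 was the lowest HSU_Sor array for 13 of the 26. An enzyme score, the mean log2 deviation of the 15 enzymes from their 7-array means, was 0.24, 0.00 and 0.51 on the HSU arrays in replicate order and -0.14, -0.13, -0.39 and -0.09 on HSU_Sor 1 to 4. The score separated the groups, with HSU 2b closest to the HSU_Sor arrays. The corresponding score of the 5 SREBP control genes was -0.06, -0.15 and 0.24 in HSU and between -0.16 and 0.14 in HSU_Sor.

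Smooth muscle markers and the complement genes among the macrophage markers were lower in HSU_Sor as well. In bulk lung RNA, fewer cells of a type and less RNA per cell cannot be told apart. Of 9 macrophage markers, 7 were on the array and 6 above the filter, and their score was 0.81, -0.11 and 0.86 in HSU and -0.24, -0.02, -0.86 and -0.45 in HSU_Sor, in replicate order. The ranges of this score overlapped, with HSU 2b below HSU_Sor 2, and HSU 3b was the highest and HSU_Sor 3 the lowest array, as for the enzymes. The complement genes C1qa, C1qb and C1qc were lower on every HSU_Sor array than on every HSU array, Cd68, Csf1r and Mrc1 had overlapping groups and differed the other way, by 0.39, 0.17 and 0.01, and Cd163 was at the floor (2.33 to 2.41). Smooth muscle markers (6 of 6 above the filter) scored 0.37 to 0.51 in HSU and -0.67 to -0.06 in HSU_Sor, with their lowest value on HSU_Sor 2. Tagln, Cnn1, Des and Actg2, 4 of the 6, were apart and lower, against 3.74% of all genes. Acta2 and Myh11 had overlapping groups and differed by -0.04 and -0.27. Alveolar type II markers (7 of 7) scored between -0.07 and 0.11 on all arrays, with a median difference of -0.08. The part of macrophages or smooth muscle in the enzyme difference was not tested.

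**Figure D4:**
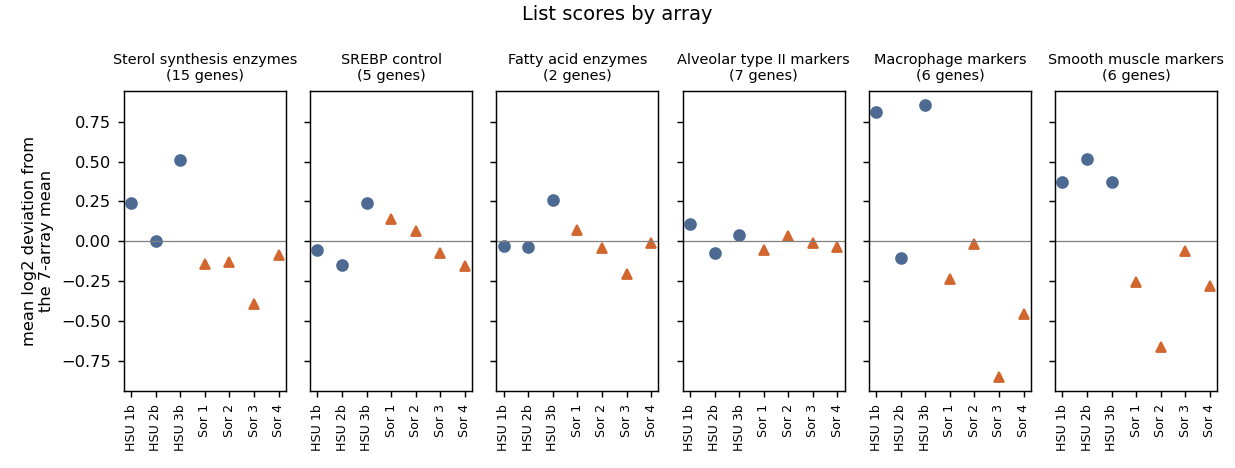
List scores, as the mean log2 deviation from the 7-array mean (vertical axis), on each of the 7 arrays (horizontal axis), for 3 groups of member genes and 3 lists of cell type markers; circles are HSU and triangles HSU_Sor arrays. The enzyme score runs from -0.39 on HSU_Sor 3 to 0.51 on HSU 3b, the arrays at which the macrophage score has its lowest and highest values too, while alveolar type II markers stay between -0.07 and 0.11.

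Lists for other cells that handle lipid or could enter the sample did not order the arrays within both groups as the enzymes did, though some shared an end of the order. Of 6 adipocyte markers, 5 were on the array, and the defining genes Adipoq, Plin1 and Lep were at the floor (2.03 to 2.53), while Fabp4 was at 9.07 to 11.11 in HSU and 8.20 to 9.07 in HSU_Sor. The score of the 2 above the filter, Fabp4 and Cfd, was 0.14 to 1.84 in HSU and -1.49 to 0.04 in HSU_Sor. Of 6 hepatocyte markers all were on the array and 2 were above the filter, Alb and Serpina1. Alb was at 12.38 on HSU_Sor 1 and between 6.76 and 8.14 elsewhere, and Apoa1 and Cyp7a1 were at the floor (1.41 to 2.23). Ttr, below the filter, was at 3.22 on HSU_Sor 1 and between 2.71 and 2.79 elsewhere. Heart muscle markers scored 2.21 and 1.07 on HSU 1b and 2b against -0.90 to -0.44 on the remaining 5, and erythroid markers were lowest on HSU_Sor 3 and 4, at -3.22 and -3.47. Among the HSU arrays erythroid markers were highest on HSU 3b, at 1.47, as the enzymes were. Markers of proliferating cells were lowest on HSU 3b, at -1.22, and highest on HSU_Sor 2, at 1.08. Among the HSU_Sor arrays they were lowest on HSU_Sor 3, at -0.68, as the enzymes were. Endothelial markers lay between -0.23 and 0.17 on all arrays and airway markers between -0.06 and 0.10.

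Around the pathway, genes of related processes had medians near 0. Of 20 genes of SREBP processing and sterol sensing, 16 were above the filter, 12 lower and 4 higher, with a median of -0.03. Sec24d and Tmed2, which serve transport from the endoplasmic reticulum, differed by -0.16 ± 0.07 and -0.15 ± 0.07. Of the enzymes that use isoprenoids, 9 were above the filter, 4 lower and 5 higher, with a median of 0.00. Of 14 genes of fatty acid synthesis and other SREBP1 genes above the filter, 6 were lower and 8 higher, with a median of 0.01. Acaca, the acetyl-CoA carboxylase, was at 9.88 to 10.35 in HSU and 10.25 to 10.72 in HSU_Sor (0.32 ± 0.16), and the malic enzyme Me1 differed by 0.29 ± 0.15, both with overlapping groups. In none of these 3 lists did a gene reach an unadjusted p below 0.05 with limma, or the adjusted threshold.

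Sterol uptake, storage and export genes gave a mixed picture. Of the 16 above the filter, 7 were lower and 9 higher, with a median of 0.09, 2 had groups apart with lower and 3 with higher levels in HSU_Sor, against 3.74% and 2.3% of all genes. With limma 0 passed the adjusted threshold, and 1 was lower and 4 were higher at an unadjusted p below 0.05, against 4.18% and 2.69% of all genes. Scarb1, the receptor that takes up cholesteryl ester from high-density lipoprotein, was at 10.32, 10.55 and 10.63 in HSU and at 9.85, 9.85, 9.79 and 9.60 in HSU_Sor, a difference of -0.73 ± 0.10. Abca1, which exports cholesterol from cells, was at 10.95 to 11.45 in HSU and 11.85 to 12.07 in HSU_Sor, a difference of 0.74 ± 0.12. Cyp27a1, which makes an oxysterol from cholesterol, was higher by 0.58 ± 0.16. The gap between the groups was 0.47 for Scarb1 and 0.41 for Abca1, and the SD within each group was at most 0.25.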

How the data were processed

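Total RNA from right lungs was hybridised as biotin-labelled cRNA to Affymetrix rat arrays, 1 per sample. The values are log2 expression per probe set as the authors deposited them. RMA and GCRMA are named, without version or role, per the submitters' processing notes, so it is unknown here which of them made the values. Methods of this kind compress differences near the floor and can give probe sets identical values on several arrays. After 57 control probe sets were left out, 31042 remained, of which 20826 had 1 gene symbol in the platform annotation, 436 several and 9780 none. Probe sets with a mean above the median (15521) were fitted with limma 3.58.1 in R 4.3.3 (lmFit and eBayes, HSU_Sor minus HSU, no block), with p-values adjusted by Benjamini-Hochberg over all of them. The SE is the moderated one, and 0.05 was the threshold. "Apart" means that no value of one group reached the range of the other. P-values measure only the spread between these arrays, whose number limits the precision.

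The members and all lists were chosen with earlier results of these data known. All members could be named, and up to 4 genes of each other list by smallest unadjusted p; markers were named by list. Correlations were computed on deviations from group means. Promoters came from RefSeq (GRCr8). The procedure was tested on simulated data, and the closing section gives the effect of other filters, scalings, variance models and left-out arrays.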

Additional observations from a re-analysis of the deposited data

Results flagged for a closer look

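Of the 30 members, 3 had a single array far from the others of its group, with a gap to the nearest array that exceeded Dixon's critical value as a share of the group's range. All 3 were on HSU_Sor 3, which was the low array. Fdps was at 11.30 there and between 11.76 and 11.82 on the other HSU_Sor arrays, with a ratio of 0.87. Fdft1 was at 8.86, against 9.10 to 9.14, with a ratio of 0.85. Dhcr7 was at 5.55, against 5.88 to 5.90, with a ratio of 0.97. Chance gives such a value in about 1 in 20 groups, and these genes varied together across arrays, so they are not independent of each other. The HSU group, with 3 arrays, was not examined in this way.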

How the results depend on the processing

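The median difference of the members above the filter was -0.20, and 22 of 26 members were lower in HSU_Sor. Both kept their direction without a filter or with one at the 75th percentile, and with arrays quantile-normalized or centred. They also kept it with array weights, with a gene's probe sets averaged, and without each array in turn. A variance trend alters only the error estimates, so it could not change either value. With the replicate block, HSU_Sor 4 has no HSU array of its number, so the differences repeat those without HSU_Sor 4. The median lay between -0.28 and -0.12 when 1 array was left out. Members with groups apart numbered 6 to 13 when 1 array was left out (13 without HSU 2b), while the share of all probe sets with groups apart, 5.26% on 7 arrays, was 7.71% to 13.2%. Members with groups apart numbered 4 with quantile normalization, against 6.31% of all probe sets, and 5 with median centring, against 4.92%. Over all probe sets, 6 passed the adjusted threshold with the 75th percentile filter, which tests fewer probe sets, and 0 to 6 when 1 array was left out (6 without HSU 3b). No member passed it in any setting. After seeing the data, further settings were added. Without HSU 3b and HSU_Sor 3 together, 6 probe sets passed, and 17 of 26 members were lower, against 54.1% of all genes, with a median of -0.06. In that setting 8 members had groups apart, against 14.6% of all probe sets. Without HSU 1b and 2b together, 10 passed, the median of the members was -0.39 and 21 of 26 had groups apart, against 37% of all probe sets, as 1 HSU array alone defines its group, which is assumed to vary like the other group. The cause of these shifts was not tested.

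Single genes had the other sign in 25 of 434 combinations of gene and setting, all for genes whose difference was within 0.35 of 0.

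With the replicate block the members' median was -0.21, 22 of 26 were lower, and 0 probe sets passed, as without HSU_Sor 4. The numbers were not taken to pair the arrays: deviations of same-numbered arrays correlated at -0.06, 0.18 and 0.14, HSU 1b correlated best with HSU_Sor 4 (0.24) and HSU 3b with HSU_Sor 1 (0.16).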

Other observations

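Equal deposited values recurred on different arrays. Of the 51 member probe sets, 14 (27.5%) carried the same value to all deposited digits on at least 2 arrays, as did 22.8% of all non-control probe sets. In 10 of them the value was shared between the groups, as for Sqle at 9.63 on HSU 2b and HSU_Sor 2 and Acat2 at 9.83 on HSU 2b and HSU_Sor 1.

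For 4 members the genes with the most similar deviations from the group means over the 7 arrays were listed among the other 9298 genes, as a description of these arrays. The highest of 9298 correlations over 7 arrays can be large through selection alone, so no shared function is read from them. For Sqle they were C1qtnf5 (r = 0.99), Bace2 (0.96) and Lsm5 (0.96). For Idi1 they were Bcl2a1 (0.99), Tmed10 (0.98), which encodes a protein of vesicle transport between the endoplasmic reticulum and the Golgi, and Lsm5 (0.98). For Insig1 they were Cct7, Hypk and Hexa (each 0.99). For Fasn they were Urah (0.97), Acsl3 (0.96), an acyl-CoA synthetase, and Fam118b (0.96). None of these 11 genes other than Acsl3 belonged to the lists used here.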
